A study of Mus musculus with 6 samples.

Results

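The 40 genes described here encode the machinery of the G2/M transition and of mitosis, that is, mitotic cyclins and kinases, the spindle and its checkpoint, the kinetochore and cytokinesis proteins. They were chosen by name and not by any measured value, but earlier results of these data were known at that time. All 40 were found among the 52089 gene symbols of the RPKM table. The data were 6 RNA-seq libraries of total RNA from primary brite adipocytes, 3 with knockdown (KD) of the long noncoding RNA *Ctcflos* and 3 nontargeting controls. Preadipocytes came from the stromal-vascular fraction of inguinal white adipose tissue of 129SvEv mice. In both groups the cells were induced for 2 days, differentiated for 1 day with rosiglitazone, a PPARγ agonist that favours browning, and reverse transfected with LNA Gapmer antisense oligonucleotides at 50 nM. The oligonucleotide was directed against *Ctcflos* in the KD group and had no target in the control group, and cells were harvested after 24 h. Since 1 oligonucleotide was used for the KD, loss of *Ctcflos* and other effects of that oligonucleotide cannot be told apart. The labels do not say whether the 3 libraries of a group came from separate cultures or animals, so p-values refer to the spread between these libraries.

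A dividing cell builds up cyclin B and CDK1 in G2, activates them at the onset of mitosis and destroys cyclin B through the anaphase promoting complex once the chromosomes are attached. The genes for this machinery are mostly transcribed in late S phase, G2 and mitosis and are largely silent in resting cells. Preadipocytes in culture can still divide after the adipogenic stimulus, a phase known as clonal expansion, and then leave the cell cycle as they fill with lipid. In bulk RNA, fewer dividing cells and less RNA in each dividing cell cannot be told apart.

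The KD was visible in the libraries. *Ctcflos*, listed under the symbol *1300015D01Rik*, had 0.0969, 0.0705 and 0.210 RPKM in the KD libraries and 0.748, 0.751 and 0.840 RPKM in the controls, so that 16.1% of the control mean was left (p = 0.1 in an exact permutation test, two-sided, where 3 against 3 libraries can give no smaller p). The depth recovered from the values was 60.7 to 75.5 mio reads in KD and 62.8 to 79.0 mio in controls. Adipocyte transcripts were abundant, with *Fabp4*, a fatty acid carrier, at 3291 ± 404 RPKM in KD and 4041 ± 312 RPKM in controls (mean ± SD, n = 3). *Ptprc*, which marks leukocytes, stayed under 0.05 RPKM in each library. The macrophage marker *Cd68* was present, at 3.24 ± 1.00 RPKM in KD and 1.08 ± 0.73 RPKM in controls.

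Promoters of mitotic genes are known for 2 short elements, the cell cycle genes homology region (CHR), which binds MuvB complexes, and the CCAAT box, which binds NF-Y. RefSeq promoter windows of mouse build GRCm38.p6, 250 bases before to 50 bases after a start, were found for 33 of the 40 genes. The CHR letters (TTTGAA or TTCGAA, both strands) occurred in 27 of the 33 genes (81.8%), against 15.96% of 6950 tested genes with a window. CCAAT (both strands) occurred in 25 genes (75.8%), against 43.8%, and both occurred in 23 genes (69.7%), against 7.77%. The 120 bases before the start of 4 genes are shown because *Prc1* was the gene that changed and *Cdk1*, *Cdc20* and *Ccnb1* are core regulators with different arrangements of the same letters. For *Prc1*, RefSeq gives 2 starts and the later one was used. In all 4 stretches the last bases shown lie inside the gene as Gencode places it. For *Ccnb1*, which Gencode starts at chr13:100786570 on the minus strand, these bases include the second CCAAT box. In *Cdk1* (Gencode start chr10:69352938) they include the CHR letters nearest the start. In *Cdc20* (chr4:118437352) they include the CCAAT box nearest the start. In *Prc1* (chr7:80294450) they include the end of the CHR letters. Capitals mark CCAAT or its reverse complement ATTGG, and the CHR letters.
*Prc1*, chr7:80294356-80294475, plus strand: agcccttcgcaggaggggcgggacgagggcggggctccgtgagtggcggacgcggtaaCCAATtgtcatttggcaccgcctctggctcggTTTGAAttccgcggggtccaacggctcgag
*Cdk1*, chr10:69352913-69353032, minus strand: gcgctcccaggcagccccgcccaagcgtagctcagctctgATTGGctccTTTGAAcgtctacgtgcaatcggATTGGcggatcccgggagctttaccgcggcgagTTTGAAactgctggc
*Cdc20*, chr4:118437344-118437463, minus strand: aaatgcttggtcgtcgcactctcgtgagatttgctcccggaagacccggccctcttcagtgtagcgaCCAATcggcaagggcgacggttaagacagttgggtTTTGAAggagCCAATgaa
*Ccnb1*, chr13:100786487-100786606, minus strand: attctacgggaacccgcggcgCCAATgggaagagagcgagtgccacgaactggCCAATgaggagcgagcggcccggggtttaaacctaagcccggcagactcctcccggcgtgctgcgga

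In *Prc1*, the CCAAT box and the CHR letters were 27 bases apart, and in *Cdk1* and *Cdc20* a pair with 28 and 30 bases between them was present. *Ccnb1* had 2 CCAAT boxes and no CHR letters in its window. The CHR letters were absent from the windows of *Birc5*, *Ccnb1*, *Cenpe*, *Mad2l1*, *Nuf2* and *Nusap1*. CCAAT was absent from those of *Anln*, *Birc5*, *Cdca5*, *Kif2c*, *Mad2l1*, *Ndc80*, *Nuf2* and *Nusap1*. Counted over all 35 windows, 31 of 40 CHR copies lay within 100 bases of a start, as did 45 of 64 CCAAT copies. *Prc1* and *Ect2* had 2 overlapping windows each, and their copies were counted in both. In 1 pair, a CHR copy and a CCAAT copy overlapped. At least 2 CCAAT copies stood in 17 of the 33 genes (51.5%), against 17.6% of tested genes. The GC content was similar, with a median of 59% in the mitosis genes and 61% in tested genes. *Aurkb*, *Ccna2*, *Cdc25c*, *Foxm1*, *Incenp*, *Kif20a* and *Tpx2* had no window. A match of letters is a description and not a binding site.

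**Figure D1:**
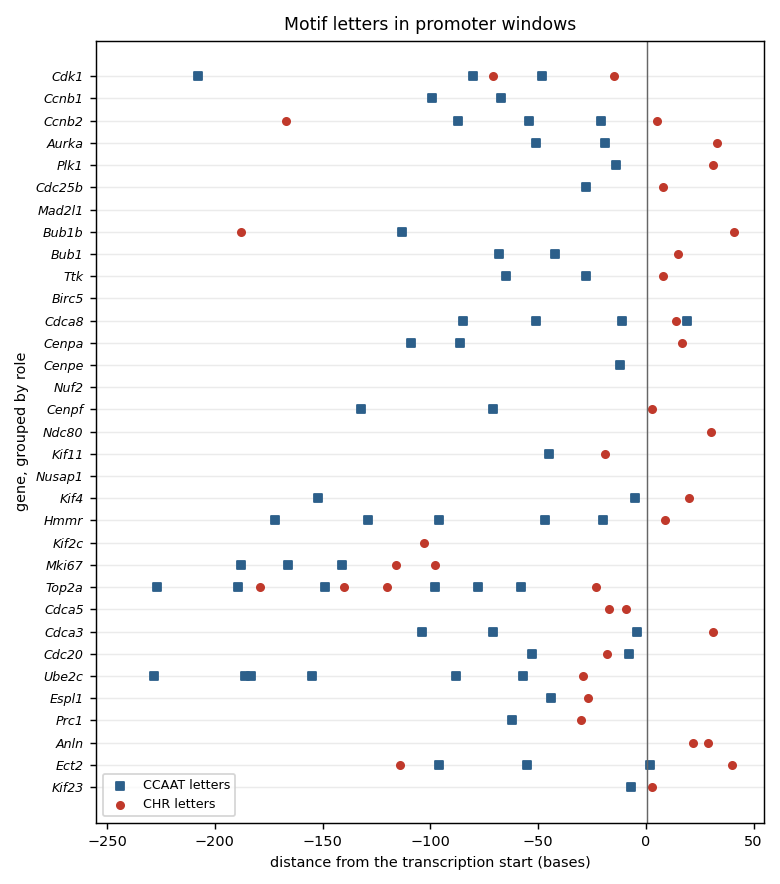
Positions of CHR letters (circles) and CCAAT letters (squares) against the distance from the transcription start in bases, for the 33 mitosis genes with a RefSeq window, grouped by role. Most copies lie within 100 bases of the start, and CCAAT stands before CHR in 23 genes.

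The mitosis genes were detected at low to moderate levels in each library. The control means ran from 0.196 RPKM for *Espl1* to 10.7 RPKM for *Mki67*, and 30 of the 40 genes had a mean of at least 1 RPKM over the 6 libraries, the level required for the test. Their median mean level was 2.36 RPKM, against 4.05 RPKM for all 11701 genes tested. The 10 genes under that level were *Bub1*, *Cdc25b*, *Cdc25c*, *Ect2*, *Espl1*, *Foxm1*, *Kif23*, *Kif2c*, *Ndc80* and *Ttk*, and their fold changes come from a fit without the filter. When the 40 genes were ordered by control level, 35 of 39 neighbouring pairs overlapped in their libraries. The 4 steps without overlap were from *Mki67* to *Ccna2*, from *Cdca8* to *Ndc80*, from *Kif2c* to *Cdc25b* and from *Cdc25c* to *Espl1*.

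**Figure D2:**
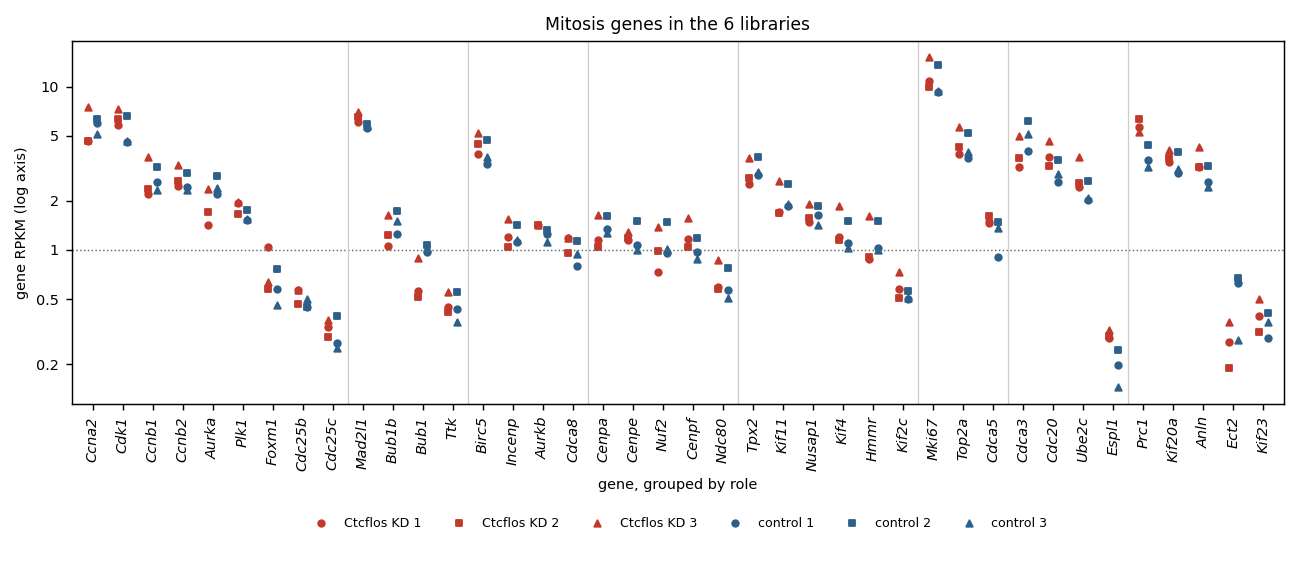
RPKM on a log axis of the 40 mitosis genes, grouped by role and ordered by control level, with 1 point per library (red KD, blue control, the marker shape gives the replicate number) and the filter of 1 RPKM dotted. The KD and control points of most genes overlap, and those of *Prc1* do not.

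*Prc1* was the only one of the 30 tested mitosis genes that changed with the KD (limma on log2(RPKM + 1), Benjamini-Hochberg adjusted p under 0.05 over all genes tested). This is 3.33% of them, while 24.0% of all genes tested passed, 11.5% higher and 12.4% lower in KD. At an unadjusted p under 0.05 the count among the mitosis genes was also 1, against 38.9% of all genes. Without overlap between the groups were 3 of the 30 tested genes, against 44.8% of all genes tested (22.9% higher and 21.9% lower in KD). Among all 40 genes, *Prc1*, *Mad2l1*, *Aurkb* and *Espl1* were higher and *Bub1* was lower in each KD library than in each control. The median log2 fold change of the 30 genes was 0.10, with 20 above 0 and 10 below, and that of all genes tested was 0.03. The sign of the members' median turned without KD library 3, to -0.02.

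The intervals bound what the libraries could have shown. For all 30 tested genes, the 95% interval lay within 2-fold of RPKM + 1 in either direction, and for 25 within 1.5-fold of it. The bounds went down to -0.70, for *Cdca3*, and, *Prc1* aside, up to 0.61, for *Cdk1*, on the log2(RPKM + 1) scale. The median standard error of the mitosis genes was 0.13, close to the 0.12 of all genes tested. This scale understates the fold change in RPKM, most for genes of low RPKM, so the intervals are wider in RPKM itself.

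**Figure D3:**
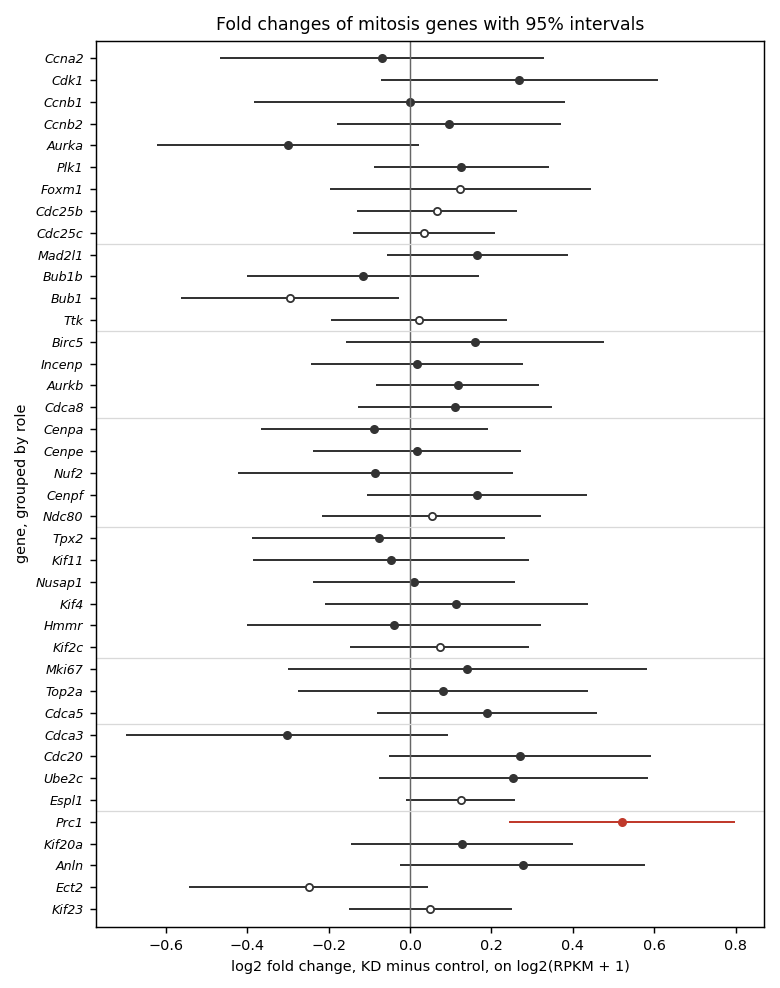
Log2 fold change of each mitosis gene, KD minus control, on log2(RPKM + 1), with the 95% interval of the limma fit, grouped by role. Open circles are genes under the filter, fitted without it, and red marks *Prc1*, whose interval runs from 0.24 to 0.80 and is the only one of a tested gene that leaves out 0.

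Entry into mitosis is driven by CDK1 with cyclins A2, B1 and B2, by the CDC25 phosphatases that activate CDK1, by the kinases PLK1 and Aurora A, and by the transcription factor FOXM1. None of the 6 tested genes of this group passed the test, and the log2 fold changes of all 9 ran from -0.30 to 0.27. *Cdk1*, with the highest mean of the group over all 6 libraries (in controls *Ccna2* was higher), had 5.79, 6.35 and 7.32 RPKM in KD and 4.55, 6.58 and 4.66 RPKM in controls. Control 2 lay within the KD range and the other controls below it (log2 fold change 0.27, SE 0.15, adjusted p = 0.21, limma). *Ccnb1*, cyclin B1, was at 2.75 ± 0.83 RPKM in KD and 2.72 ± 0.47 RPKM in controls, and *Ccnb2* at 2.80 ± 0.44 and 2.55 ± 0.34 RPKM. *Ccna2*, cyclin A2, was at 5.60 ± 1.65 and 5.81 ± 0.61 RPKM, and *Plk1* at 1.85 ± 0.16 and 1.61 ± 0.12 RPKM (mean ± SD, n = 3). The 3 genes under the filter, *Foxm1*, *Cdc25b* and *Cdc25c*, had log2 fold changes of 0.12, 0.07 and 0.03.

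*Aurka*, Aurora A, which matures centrosomes and builds the spindle, had the most negative value of this group. Its per-library values are given because of that value. It had 1.43, 1.70 and 2.37 RPKM in KD and 2.19, 2.82 and 2.38 RPKM in controls. KD libraries 1 and 2 lay below all controls and KD library 3 among them (log2 fold change -0.30, SE 0.14, adjusted p = 0.15). Without KD library 3, where 41.1% of all genes passed, the value was -0.43 with an adjusted p of 0.017, and over the libraries left out in turn it ran from -0.43 to -0.20. With each other library left out, the adjusted p of *Aurka* was between 0.20 and 0.36 (limma).

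The spindle checkpoint holds back anaphase until each kinetochore is attached. *Mad2l1*, whose product MAD2 binds CDC20 in the checkpoint complex, had 6.09, 6.54 and 7.01 RPKM in KD and 5.58, 5.90 and 5.70 RPKM in controls. Each KD library was above each control, but the difference did not pass (log2 fold change 0.17, SE 0.10, adjusted p = 0.23). *Bub1*, the kinase that recruits checkpoint proteins to kinetochores, went the other way, with 0.560, 0.511 and 0.896 RPKM in KD and 0.973, 1.07 and 1.02 RPKM in controls. Its KD libraries were all below its controls (log2 fold change -0.30, SE 0.11, adjusted p = 0.17 without the filter), and without KD library 3 the adjusted p was 0.040. With each other library left out, the adjusted p of *Bub1* was between 0.30 and 0.36 (limma). Of the 7 accessions of *Bub1*, 5 were lower without overlap and none was higher. They share reads. The only Ensembl transcript listed for *Bub1*, of 586 bases, had 21, 24 and 25 reads in KD and 30, 42 and 35 in controls. Reads on its other accessions were not recovered. *Bub1b* (BUBR1) had a log2 fold change of -0.12 and *Ttk* (MPS1) of 0.02.

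The chromosomal passenger complex, made of Aurora B, INCENP, survivin and borealin, corrects wrong attachments and later moves to the midzone. All 4 of its genes were tested and none passed, with log2 fold changes between 0.02 and 0.16. *Birc5*, survivin, was the most abundant, with 3.84, 4.46 and 5.17 RPKM in KD and 3.37, 4.71 and 3.69 RPKM in controls. The groups overlapped (log2 fold change 0.16, SE 0.14, adjusted p = 0.42). *Aurkb*, Aurora B, was at 1.42 ± 0.01 RPKM in KD and 1.23 ± 0.10 RPKM in controls, a narrow gap without overlap (log2 fold change 0.12, adjusted p = 0.34). *Cdca8*, borealin, and *Incenp* had log2 fold changes of 0.11 and 0.02.

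Kinetochores join the centromeres to spindle microtubules, and the log2 fold changes of their 5 genes ran from -0.09 to 0.16. *Cenpa*, the centromeric histone H3 variant, had 1.15, 1.05 and 1.63 RPKM in KD and 1.35, 1.61 and 1.26 RPKM in controls. KD libraries 1 and 2 lay below all controls and KD library 3 above them (log2 fold change -0.09, SE 0.12, adjusted p = 0.62). None of the 4 tested genes passed. *Nuf2* and *Ndc80*, parts of the microtubule-binding NDC80 complex, had log2 fold changes of -0.09 and 0.05, *Cenpe*, a kinetochore motor, of 0.02 and *Cenpf* of 0.16. The sign of *Cenpe* turned under scaling by the median of ratios.

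The 6 genes of the spindle and its motors had log2 fold changes between -0.08 and 0.11. *Tpx2*, which activates Aurora A on spindle microtubules, had 2.53, 2.74 and 3.67 RPKM in KD and 2.86, 3.69 and 3.00 RPKM in controls. The KD range enclosed all but the highest control (log2 fold change -0.08, SE 0.13, adjusted p = 0.69). None of the 5 tested genes passed. The log2 fold changes were -0.05 for *Kif11*, the motor that drives the poles apart, 0.11 for *Kif4*, 0.07 for *Kif2c*, 0.01 for *Nusap1*, whose sign turned under scaling by the median of ratios, and -0.04 for *Hmmr*.

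*Mki67*, the gene of the proliferation marker Ki-67, which coats mitotic chromosomes, had the highest level of the 40 genes. It had 10.7, 9.94 and 15.1 RPKM in KD and 9.27, 13.5 and 9.39 RPKM in controls. KD library 3 and control 2 were high and the other 4 libraries were close together, so that the groups overlapped (log2 fold change 0.14, SE 0.19, adjusted p = 0.61). *Top2a*, topoisomerase II, which untangles sister chromatids, was at 4.59 ± 0.92 RPKM in KD and 4.29 ± 0.83 RPKM in controls. *Cdca5*, sororin, which protects cohesin, was at 1.55 ± 0.08 and 1.25 ± 0.30 RPKM (mean ± SD, n = 3).

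Genes of anaphase and of protein degradation did not pass, and only *Cdca3* among them had a negative fold change. *Cdca3*, which takes part in the degradation of WEE1, had 3.20, 3.66 and 4.99 RPKM in KD and 4.02, 6.15 and 5.14 RPKM in controls. The groups overlapped at KD library 3 and control 1 (log2 fold change -0.30, SE 0.17, adjusted p = 0.22). Without KD library 3, where 41.1% of all genes passed, the value was -0.45 with an adjusted p of 0.047. With each other library left out, the adjusted p of *Cdca3* was between 0.16 and 0.50 (limma). *Cdc20*, the activator of the anaphase promoting complex, had 3.68, 3.25 and 4.66 RPKM in KD and 2.59, 3.57 and 2.91 RPKM in controls (log2 fold change 0.27, adjusted p = 0.19). *Ube2c*, the ubiquitin-conjugating enzyme of that complex, had a log2 fold change of 0.25, and *Espl1*, separase, which cleaves cohesin, of 0.12 at 0.303 RPKM in KD and 0.196 RPKM in controls. The per-library values of *Cdc20* and *Bub1* were chosen for print after all values had been seen.

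Cytokinesis held the 1 gene that changed. *Prc1* (ENSMUSG00000038943.16, chr7:80294450-80316259, plus strand, protein coding) encodes the protein that crosslinks antiparallel microtubules in the central spindle, where the cell divides. It had 5.62, 6.30 and 5.26 RPKM in KD and 3.53, 4.36 and 3.23 RPKM in controls. The lowest KD library lay above the highest control, and the means were 5.73 ± 0.53 and 3.70 ± 0.58 RPKM (mean ± SD, n = 3). *Prc1* rose by 0.52 on the log2(RPKM + 1) scale (SE 0.12, 95% interval 0.24 to 0.80, adjusted p = 0.021, limma). All 13 accessions of *Prc1* were higher in each KD library, with ratios of the means between 1.502 and 1.658. They share reads and are not independent. The most abundant Ensembl transcript held 1098, 1356 and 909 reads in KD and 779, 973 and 572 reads in controls.

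The call on *Prc1* depended on which libraries were used. It passed without KD library 3 (adjusted p = 0.0091) and without control 2 (0.026), and it missed without KD library 1 (0.055), KD library 2 (0.068), control 1 (0.091) and control 3 (0.097), with log2 fold changes between 0.45 and 0.62 in all 6 cases. Exons of *Rccd1* on the opposite strand overlap 11.1% of the exon bases of *Prc1*, and whether reads were counted by strand is not given in the sources used here. *Rccd1*, looked up for this reason after the values had been seen, was at 1.70 ± 0.17 RPKM in KD and 1.43 ± 0.07 RPKM in controls and did not pass as a mean over its accessions (log2 fold change 0.15, adjusted p = 0.25, limma). Of its 14 accessions, 3 were higher in KD without overlap. The most abundant, a GenBank clone, had 6.86, 8.28 and 6.39 RPKM in KD and 4.55, 5.21 and 3.81 RPKM in controls, with a ratio of the means of 1.586 that lies within the range of the *Prc1* accessions, and the curated RefSeq accession of *Rccd1* had a ratio of 1.07. With the accession of highest mean taken for each gene, *Rccd1* passed (log2 fold change 0.57, adjusted p = 0.023), and with RefSeq mRNA accessions alone it did not (0.05, adjusted p = 0.68). With RefSeq mRNA accessions alone *Prc1* passed (0.53, adjusted p = 0.016). From which of the 2 genes the shared reads came was not tested.

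The other cytokinesis genes did not pass. *Anln*, anillin, which organises the contractile ring, was at 3.58 ± 0.61 RPKM in KD and 2.78 ± 0.44 RPKM in controls (log2 fold change 0.28, adjusted p = 0.15). *Kif20a* and *Kif23*, motors of the central spindle, had log2 fold changes of 0.13 and 0.05. *Ect2*, the exchange factor that activates RhoA at the cleavage site, had 0.273, 0.190 and 0.363 RPKM in KD and 0.623, 0.670 and 0.279 RPKM in controls. Control 3 lay within the KD range and the other controls above it (log2 fold change -0.25, adjusted p = 0.28 without the filter). These per-library values of *Ect2* were also chosen after the values had been seen. Among the 10 genes under the filter none passed in the fit without it, where 4.71% of all 38335 genes passed. With so few genes, that count says little about them. Of the 10, 1 had an unadjusted p under 0.05 and 8 had a fold change above 0.

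The mitosis genes also moved together between libraries of the same group. KD library 3 was the highest KD library for 36 of the 40 genes, while it was the highest for 29.8% of all genes tested. Control 2 was the highest control for 39 of the 40 genes, against 25.2% of all genes tested. The summed RPKM of the 40 genes was 88.0, 89.96 and 116.8 in KD and 81.9, 106.7 and 83.0 in controls. Within a group the highest library was above the lowest by a median of 1.45 times in KD and 1.38 times in controls. *Prc1* was among the exceptions, since its lowest KD library was number 3.

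**Figure D4:**
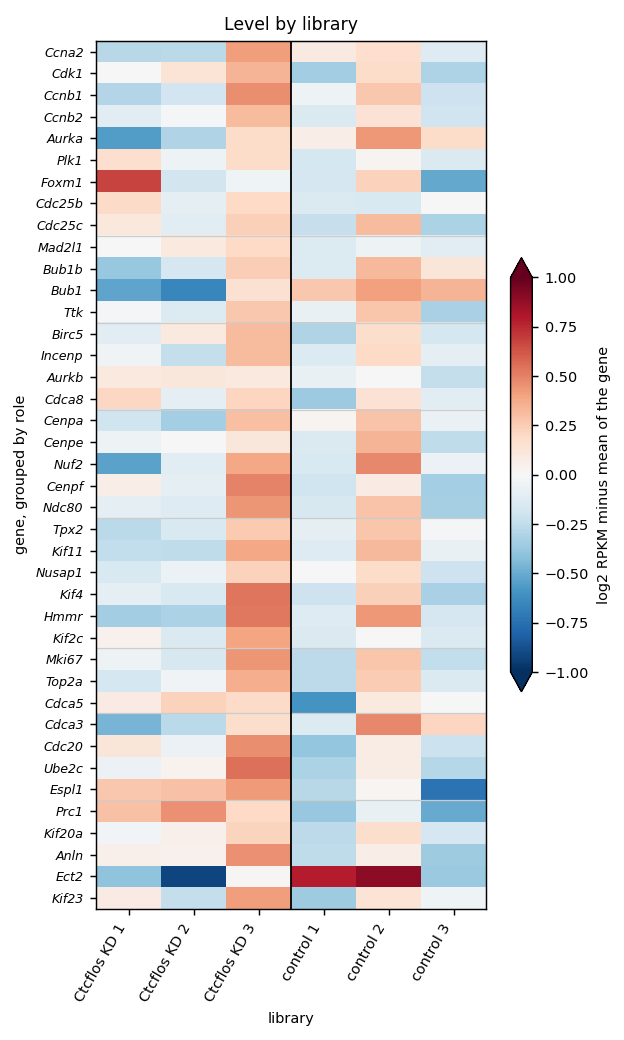
Log2 RPKM of each mitosis gene minus its mean over the 6 libraries (red higher, blue lower), genes in rows grouped by role and libraries in columns, with a black line between KD and control. KD 3 and control 2 are red in most rows, *Prc1* is red in all KD columns, and *Bub1* is blue in KD 1 and KD 2.

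Markers of some cell types moved between the same libraries. The summed RPKM of 6 smooth muscle and pericyte markers was 52.2, 65.5 and 114.4 in KD and 78.1, 201 and 94.4 in controls, again highest in KD library 3 and control 2. For 9 macrophage and leukocyte markers it was 7.43, 7.25 and 16.9 in KD and 9.17, 28.6 and 9.19 in controls, with the T cell marker *Cd3e* listed at 0 in all 6 libraries. The macrophage marker *Emr1* itself (F4/80) ran from 0.02 to 0.34 RPKM, and its highest value was in control 2. *Cd68*, of the same list, did not follow the sum in KD, where it had 4.12, 3.44 and 2.16 RPKM and was lowest in KD library 3. In controls it had 0.657, 1.92 and 0.664 RPKM and was highest in control 2. The sum of 7 preadipocyte markers was lowest in the same libraries, with 352, 406 and 185 in KD and 421, 282 and 456 in controls. The 4 mesothelial markers summed to 27.7, 30.2 and 8.31 in KD and 9.60, 6.47 and 9.67 in controls, and the 6 endothelial markers to between 0.68 and 1.63. The sum of 12 adipocyte markers did not follow this order, with 4711, 5592 and 6209 in KD and 7035, 6388 and 7107 in controls, highest in KD library 3 and lowest in control 2 within the groups. Neither did depth, since KD library 3 had the lowest depth of all and control 2 the highest. The part of these markers in the levels of the mitosis genes was not tested.

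Because the 40 genes moved together between libraries, each was also set against the others within its library, as its log2 RPKM minus the mean of the tested mitosis genes other than itself. This scale was chosen after the data had been seen, is given without a test, and makes values balance, so that some genes must be higher where others are lower. On it, 11 of the 30 tested genes did not overlap between the groups, and 22.4% of all genes on the same scale. The scale takes the shared movement out of the mitosis genes and puts it into all other genes, so these shares cannot be compared. In RPKM they were 3 of the 30 and 44.8%. Relatively higher in each KD library were *Prc1* (by 0.56 in the means), *Anln* (0.28), *Ube2c* (0.27), *Cdc20* (0.27), *Cdk1* (0.23) and *Birc5* (0.11). Relatively lower were *Aurka* (-0.56), *Cdca3* (-0.48), *Bub1b* (-0.31), *Cenpa* (-0.26) and *Tpx2* (-0.20). Of the genes under the filter, *Bub1* (-0.78) and *Ect2* (-0.97) were also lower and *Espl1* (0.57) higher. For *Aurka* the relative level was -0.64, -0.42 and -0.33 in KD and 0.08, 0.05 and 0.17 in controls, so that KD library 3, which overlapped the controls in RPKM, stood below them here.

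**Figure D5:**
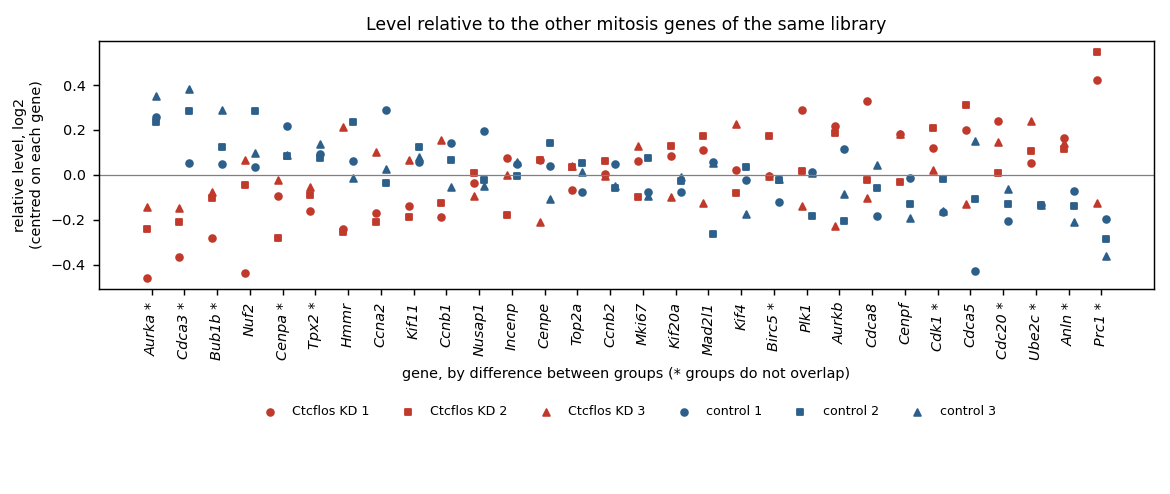
Log2 RPKM of each tested mitosis gene minus the mean of the others in the same library, centred on each gene and ordered by the difference between the groups, with 1 point per library (red KD, blue control). Stars mark the 11 genes whose groups do not overlap, from *Aurka* with the most negative difference to *Prc1* with the most positive.

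Further genes of cell division were taken from lists. Of 40 tested genes on a list of other mitotic genes, 3 were higher and none lower (7.50%, against 24.0% of all genes), with a median log2 fold change of 0.11, and at an unadjusted p under 0.05 they were 9 and 1. *Spag5*, astrin, a spindle protein, rose from 0.719 ± 0.120 to 1.34 ± 0.13 RPKM (log2 fold change 0.45, adjusted p = 0.018, limma), and *Trip13*, which disassembles the checkpoint complex, from 0.950 ± 0.206 to 1.66 ± 0.18 RPKM (0.45, adjusted p = 0.024). Of 17 tested subunits and cofactors of the anaphase promoting complex, 1 was higher and none lower (5.88%, against 24.0% of all genes). At an unadjusted p under 0.05, which 38.9% of all genes had, they were 1 and 1. The higher one was *Anapc7* (log2 fold change 0.70, adjusted p = 0.017, limma). Of 16 condensin and cohesin genes, 2 were higher and 1 lower (18.8%, below the 24.0% of all genes). *Wapal*, which releases cohesin, rose by 0.65 and *Rad21*, a cohesin subunit, by 0.51, while *Smc1a*, another subunit, fell by 0.46 on the same scale.

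Genes of the earlier phases of the cell cycle were counted in the same way. Of 34 tested S phase replication genes, 9 were higher and 3 lower (35.3%, against 24.0% of all genes), with a median log2 fold change of 0.15. *Dbf4*, which activates the kinase CDC7, rose by 0.57 (adjusted p = 0.011) and *Mcm3*, a helicase subunit, by 0.66 (adjusted p = 0.015), while *Rfc2*, a clamp loader subunit, fell by 0.82 (adjusted p = 0.012). Of 9 G1 cyclins and kinases, 3 were higher and none lower (33.3%, with 4 and 0 at an unadjusted p under 0.05, limma). *Ccnd1*, cyclin D1, had 3.63, 2.92 and 4.35 RPKM in KD and 1.17, 2.18 and 1.14 RPKM in controls, without overlap (log2 fold change 0.90, adjusted p = 0.014), and *Ccne2*, cyclin E2, rose by 0.35. The lists were of different size and level, and no difference between them was tested. Without control 1 and without control 3, 0 of the 21 called genes that the naming rule took from all lists passed. In these 2 runs 3.60% and 3.16% of all genes passed, against 24.0% with all libraries. Without KD library 1 and without KD library 2, 9 and 7 of the 20 above the filter passed (10.1% and 9.31% of all genes). Without control 2, 15 of 21 passed (13.5% of all genes).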

How the data were processed

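Groups and replicate numbers came from the labels. The authors deposited a single table of RPKM, reads scaled to transcript length and to the mapped reads of a library, for RefSeq, Ensembl and GenBank accessions, with 168326 lines and decimal commas, and replicates were not pooled. How this table was counted, and whether strand was used, is not given in the sources used here. The libraries were made with a stranded total RNA kit per the labels. After 305 exact repeats were removed, the value of a gene was the mean RPKM over all accessions of its symbol.

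Genes with a mean of at least 1 RPKM over the 6 libraries (11701) were tested with limma-trend on log2(RPKM + 1), KD against control without a block, and the Benjamini-Hochberg adjustment covered all of them. Genes under that level were taken from the same fit without a filter (38335 genes). The method was tested on simulated data. Depth was recovered from low values of Ensembl transcripts with Gencode vM21 lengths, where at least 96.2% were whole reads within 0.1 read. It was not used for a count test, since it was recovered for transcripts of 1 source alone. Gene positions are from Gencode vM21 and promoters from RefSeq, both on GRCm38.

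The members, gene lists and tests were chosen with earlier results of these data known. Named genes were all members, *Ctcflos*, the 2 genes with the smallest adjusted p in each direction of each list, and fixed regulators and identity markers. The values of 1 gene that this rule took are not reported here. Per-library values were given for the called or most abundant member of each role. Work was done in R 4.3.3 with limma 3.58.1 and data.table (version 1.17.8) and in Python 3.11.15 with pandas 2.3.3 and numpy 2.4.6. Alternatives were a pseudocount of 0.1, no filter, scaling by the median of ratios, a replicate block, RefSeq mRNA accessions alone, the accession with the highest mean, an adjusted p of 0.01 and each library left out.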

Additional observations from a re-analysis of the deposited data

How the results depend on the processing

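The number of genes called over the whole table (2803, of which 1349 higher and 1454 lower) moved with the settings, to 1807 (750 higher) without a filter, 1671 (746 higher, 925 lower) with the replicate number as a block, 523 (172 and 351) at an adjusted p of 0.01, and 369 to 4810 (130 to 2727 higher, 239 to 2083 lower) with 1 library left out. The lowest count was without control 3 (3.16% of genes) and the highest without KD library 3 (41.1%). Without a filter 4.71% of genes were called. The replicate numbers did not pair the libraries (correlations of deviations 0.29, -0.29 and -0.42), and with the block the same mitosis gene, *Prc1*, was called (adjusted p = 0.033, limma). The number of mitosis genes called was 0 without a filter (limma adjusted p of *Prc1* 0.055, 2 genes at an unadjusted p under 0.05), 0 at an adjusted p of 0.01 (1 gene at an unadjusted p under 0.05), and 0 to 3 (0 to 1 higher, 0 to 2 lower) with 1 library left out. The 3 were *Prc1*, *Aurka* and *Cdca3* without KD library 3. Where the count was 0, without KD library 1, KD library 2, control 1 or control 3, 1 or 2 genes had an unadjusted p under 0.05. It was 1 under each other alternative run. The members' median ran from -0.02 to 0.17 with 1 library left out and from 0.07 to 0.14 otherwise.

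Scaling by the median of ratios over genes without a zero turned the signs of *Cenpe* (-0.0090), *Incenp* (-0.011) and *Nusap1* (-0.021), all close to 0. Over genes with a mean of at least 1 RPKM, an alternative chosen after the first had been seen, it turned *Cenpe* (-5.36e-05) and *Nusap1* (-0.0094). They called 2480 and 2956 genes. With 1 library left out, the sign turned for genes near 0: *Ccna2* ran from -0.267 to 0.030, *Ccnb1* from -0.176 to 0.105, *Cdkn1b* from -0.173 to 0.075, *Cenpe* from -0.047 to 0.118, *Hmmr* from -0.195 to 0.068, *Incenp* from -0.069 to 0.088, *Kif11* from -0.19 to 0.050, *Kif4* from -0.017 to 0.207, *Mki67* from -0.029 to 0.302, *Mybl2* from -0.017 to 0.054, *Ndc80* from -0.023 to 0.122, *Nuf2* from -0.207 to 0.024, *Nusap1* from -0.061 to 0.068, *Top2a* from -0.048 to 0.204, *Tpx2* from -0.198 to 0.0080 and *Ttk* from -0.022 to 0.072. Of the 21 called genes that the naming rule took from the other lists, none turned its sign. Without control 1 and without control 3, where 3.60% and 3.16% of all genes passed, 0 of the 21 were still called. With the block 13 were, and without a filter 8. The causes were not tested.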

Other observations

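Of 14 tested E2F, DP and MuvB factors, which act upstream of cell cycle genes, 2 were higher and 2 lower in KD (28.6%, close to the 24.0% of all genes tested). *E2f5* rose from 2.07 ± 0.26 to 3.54 ± 0.49 RPKM (mean ± SD, n = 3, adjusted p = 0.015, limma) and *E2f6* from 3.32 ± 0.07 to 4.56 ± 0.45 RPKM (adjusted p = 0.032), while *E2f4*, a partner of the pocket proteins, fell from 4.01 ± 0.24 to 2.90 ± 0.26 RPKM (adjusted p = 0.031) and *E2f2* from 2.16 ± 0.51 to 1.23 ± 0.09 RPKM (adjusted p = 0.030). *Lin54*, the MuvB subunit that binds the CHR, was at 2.70 ± 0.26 RPKM in KD and 2.43 ± 0.24 RPKM in controls and did not pass (adjusted p = 0.44). *E2f1* and *Mybl2* had means of 1.01 and 0.14 RPKM in KD and 0.94 and 0.13 RPKM in controls.

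Of 7 tested CDK inhibitors and pocket proteins, 1 was higher and none lower (14.3%, against 24.0% of all genes, with 2 and 1 at an unadjusted p under 0.05, limma). *Cdkn2b* (p15) had 21.8, 24.0 and 13.2 RPKM in KD and 11.4, 8.73 and 11.7 RPKM in controls (log2 fold change 0.80, adjusted p = 0.034, limma), with KD library 3 the closest to the controls. *Cdkn1a* (p21) was at 18.2 ± 6.4 and 11.6 ± 1.9 RPKM and did not pass (adjusted p = 0.13), nor did *Cdkn1b* (log2 fold change -0.03) or *Rb1* (-0.28). Of 12 adipocyte markers, 3 were lower and none higher (25%, close to the 24.0% of all genes, with 8 and 0 at an unadjusted p under 0.05, which 38.9% of all genes had). *Ucp1*, the thermogenic uncoupling protein, had 23.6, 26.1 and 12.4 RPKM in KD and 67.0, 27.1 and 57.3 RPKM in controls (adjusted p = 0.048), so that control 2, in which the mitosis genes were high, was the lowest control. *Cebpa* fell by 0.89 on the log2 scale (adjusted p = 0.038). *Pparg* (-0.36) and *Adipoq* (-0.55) were lower in each KD library and did not pass. Of 5 tested preadipocyte markers, 1 was lower and none higher (20%), with log2 fold changes from -0.69 to 0.17 and a median of -0.06. The lower one was *Pdgfra*, which fell by 0.69 (adjusted p = 0.010). Of the macrophage and leukocyte markers only 2 were tested. *Cd68*, a lysosomal protein of macrophages, rose by 1.05 (adjusted p = 0.023), while the other, *Lyz2*, had a log2 fold change of -1.45 and did not pass (adjusted p = 0.17). *Emr1* and *Ptprc*, under the filter, had -0.14 and -0.04. *Pecam1*, an endothelial marker, had means of 0.29 RPKM in KD and 0.45 RPKM in controls. None of the genes called here passed without control 1 or without control 3, where 3.60% and 3.16% of all genes did.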
